A study of Mus musculus with 8 samples.

Results

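Ubiquitin-specific proteases (USPs) are the largest family of deubiquitinases, the enzymes that cut ubiquitin off proteins or take ubiquitin chains apart. The members examined were the protein-coding mouse genes on chromosomes 1 to 19 whose symbol is Usp followed by a digit, 50 of 20558 protein-coding genes there. They lie on 15 chromosomes. Another 9 entries with such symbols were outside the choice, namely 5 genes on chromosome X, 1 on Y, and 3 noncoding or pseudogene entries. Usp6nl meets the rule by its letters alone: its product is a GTPase-activating protein for Rab GTPases, and not a protease. The binding data were 9829 peaks of RelA (p65), an NF-kB subunit, mapped by ChIP-seq, in which an antibody pulls down chromatin and its DNA is sequenced. The cells were primary fibroblasts from wild-type C57BL/6 embryos. All were starved of serum overnight and doubly cross-linked, and TNF, an inflammatory cytokine, was given at 10 ng/ml for 0, 0.5 or 3 h. Each time had 2 ChIP libraries, and 2 libraries of input DNA brought the number to 8.

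The peaks formed a single list of positions on the mm10 genome with no height and no library attached. Binding could therefore not be compared between times or replicates, the sequencing depth was unknown, and the fibroblast label could not be checked against marker expression. No test was made, because nothing could be compared over samples. Shares are instead set beside those of the other 20508 protein-coding genes of chromosomes 1 to 19, and beside those of similar length. Similar length means within 1.5 times the length of the USP gene, and each USP gene had from 879 to 4620 such genes. The number of USP genes expected from them is the sum of their shares with a peak. Wilson 95% intervals cover counting error only.

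TNF signalling runs on ubiquitin. Ligases at the TNF receptor build chains that recruit kinases, the kinases mark the inhibitor of NF-kB for destruction by the proteasome, and RelA then enters the nucleus. Deubiquitinases remove such chains, and A20 and Cyld, which are not named Usp, are well known brakes on NF-kB. Many USPs have been reported to act on proteins of this route, while others serve histones, DNA repair, endosomes or the proteasome.

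Before gene length was considered, the share of USP genes with a RelA peak was close to that of other genes. A peak centre lay inside the gene or within 10 kb of its ends for 11 of 50 USP genes (22.0%, Wilson 95% interval 12.8 to 35.2%), against 23.8% of other protein-coding genes. Widened to 50 kb, the count was 23 of 50 (46.0%, interval 33.0 to 59.6%), against 44.5%. The 11 genes were Usp3, Usp4, Usp5, Usp13, Usp16, Usp29, Usp31, Usp35, Usp44, Usp50 and Usp53. Of these, 8 held the peak inside the gene (16.0%, against 15.0% of other genes), and 3 had one within 1 kb of a gene end (6.00%, against 6.58%). Each of the 4 backgrounds lay inside the interval of the USP share, so a difference was not detectable with 50 genes.

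USP genes are long, and that changes what the background should be. Their median length was 48.4 kb, against 17.5 kb for other genes, and they ranged from 2.33 kb (Usp17lb) to 237 kb (Usp29). A longer gene offers more sequence in which a peak can fall. Genes of similar length gave an expected 14.9 USP genes with a peak inside or within 10 kb (29.8%), so that the observed 11 were 0.738 times that number. At 50 kb the expected number was 25.1, a ratio of 0.916, and for peaks inside the gene it was 10.7, a ratio of 0.747. The observed counts were below the expected in each of these windows, and the expected shares still lay within the Wilson intervals.

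**Figure D1:**
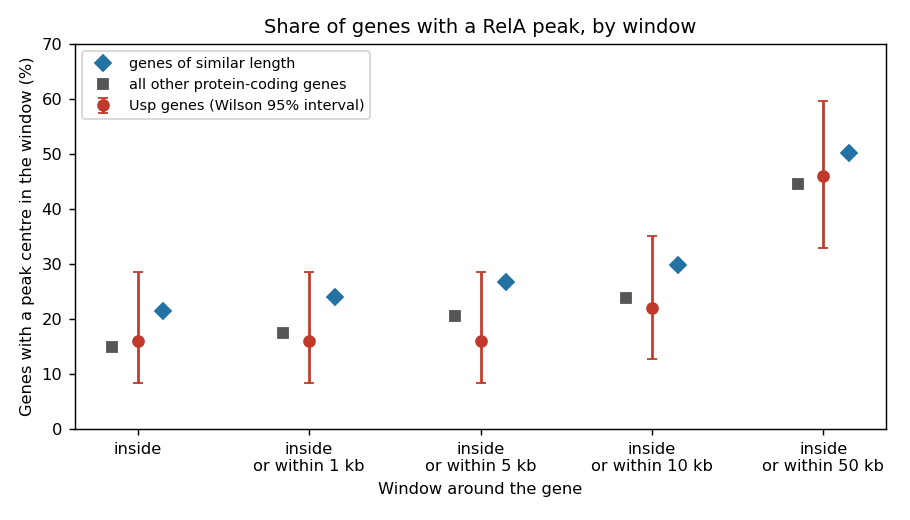
Share of genes (vertical axis, percent) with a RelA peak centre in 5 windows around the gene (horizontal axis), for the 50 USP genes (circles, bars are Wilson 95% intervals), all other protein-coding genes (squares) and genes of similar length (diamonds). The circles sit near the squares and below the diamonds in every window, and the bars reach the diamonds.

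By length, the count was below the expected number among the long members. Of the 20 USP genes over 60 kb, 4 had a peak inside or within 10 kb (20%, Wilson 95% interval 8.07 to 41.6%), whereas genes of similar length gave an expected 8.10, a share just inside that interval. Among all other genes over 60 kb, whose lengths are spread differently, the share was 48.1%. Of the 30 USP genes of 60 kb or less, 7 had a peak (23.3%, interval 11.8 to 40.9%), against 18% of other genes that short. Lengths are spread differently here too: 7271 of those 16550 other genes were under 10 kb, against 6 of the 30 USP genes. The 18% is therefore not a share for genes of similar length, and it lies inside the interval. The length of 60 kb, and the length classes that follow, were chosen after the values were seen. In other genes the share climbed with length, from 12.1% under 10 kb to 56.9% over 100 kb. In USP genes the counts were 0 of 6 genes under 10 kb, 4 of 11 from 10 to 30 kb, 3 of 13 from 30 to 60 kb, 2 of 12 from 60 to 100 kb and 2 of 8 over 100 kb. In each of these classes the Wilson interval of the USP share held the share of other genes, so a different trend with length was not detectable. Usp34 is an example of a long gene without a peak: it spans 187 kb on chromosome 11, and the nearest peak centre was 281 kb from its ends. Usp24 (131 kb) and Usp32 (156 kb) were 120 and 113 kb from a peak.

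**Figure D2:**
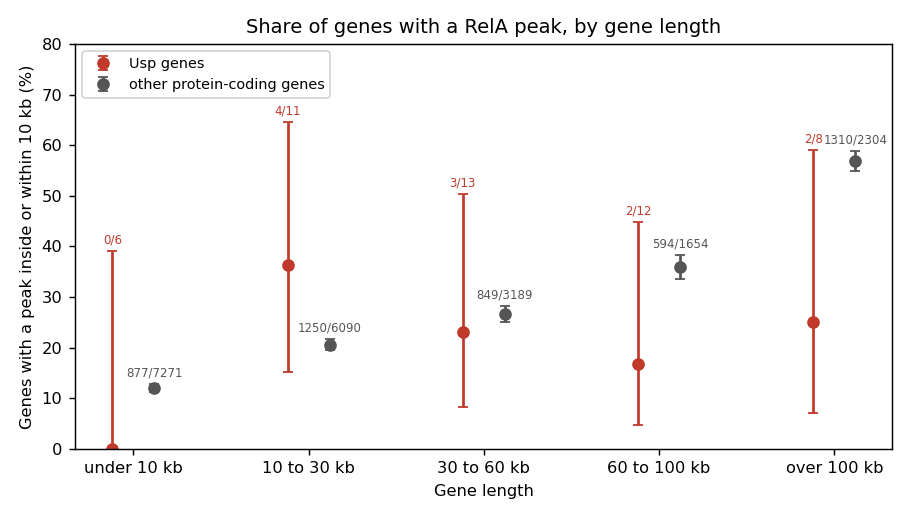
Share of genes with a RelA peak centre inside or within 10 kb (vertical axis, percent) by gene length (horizontal axis), with Wilson 95% intervals and counts, for USP genes and other protein-coding genes. The share of other genes goes from 12.1 to 56.9% with length, the USP shares lie between 0 and 36.4%, and each USP interval holds the share of other genes.

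No USP gene had more than 1 peak inside or within 10 kb. Genes of similar length gave an expected 4.37 members with 2 or more peaks in that window and 21.6 peaks in all, against the 11 observed. Among other genes, 6.80% had 2 or more. Per megabase of genes with their 10 kb flanks, USP genes had 2.81 peaks and other genes 5.19, where a peak near several genes counts for each. Within 50 kb, 7 USP genes had 2 or more peaks, with 11.1 expected from genes of similar length. Usp5 had the most, 3.

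The 4 members closest to a peak had it at one of their ends. Usp35, whose product has been reported at mitochondria, spans positions 97309403 to 97332308 of chromosome 7, and its peak (97331775 to 97332451, 677 bp) was centred 0.195 kb inside the gene. That centre was 0.004 kb upstream of the Usp35 start site in the RefSeq promoter table. The neighbouring gene Kctd21 has an end at the same 0.195 kb from the peak, so the peak belongs to either gene equally by distance. Usp16 removes ubiquitin from histone H2A. It spans 87454985 to 87483515 of chromosome 16, and a 1011 bp peak (87454730 to 87455740) was centred 0.250 kb downstream of its start site. The next protein-coding gene end, that of Rwdd2b, was 14.6 kb from that centre. Of all peaks on chromosomes 1 to 19, 91.8% were narrower than the Usp16 peak.

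Usp5 and Usp3 followed. Usp5, also called isopeptidase T, takes apart free ubiquitin chains and so returns ubiquitin to the cell's pool. It spans 124815019 to 124829484 of chromosome 6, and its 601 bp peak (124828735 to 124829335) was centred 0.449 kb inside one end. An end of Cdca3 was 0.495 kb from the same centre, nearly as close. Usp3, another histone H2A deubiquitinase, spans 66514639 to 66593148 of chromosome 9. Its 735 bp peak (66591735 to 66592469) was centred 1.01 kb downstream of the start site, and a second peak of 1033 bp lay 27.6 kb outside the same end. Of the 38 USP genes with a start site in the promoter table, 2 had a peak centre within 1 kb of it, against 6.84% of 16419 other genes.

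The promoters covered by a peak are shown for their kappaB-like sequences, kappaB being the short DNA element that NF-kB dimers contact. The RefSeq promoter table (GRCm38.p6) holds 300 bases for each start site, 250 before it and 50 after, and matched 38 of the 50 genes. The promoters of Usp16 and Usp35 lay wholly within a peak, 2 of 38 (5.26%), against 859 of 16419 other promoters (5.23%) that overlapped one. The promoters of Usp13 and Usp45 are shown beside them, because they hold the consensus or the form GGNNTTTCC, as defined next, and overlap no peak. Capitals mark matches to any of 3 forms of kappaB, searched on both strands: the kappaB consensus of 10 bases, a looser form of it, and the form GGNNTTTCC. The forms overlap, since every match to the consensus is also one to the looser form. Each sequence runs 5′ to 3′ along the gene.
Usp16 (chr16:87454735-87455034, plus strand, inside a peak): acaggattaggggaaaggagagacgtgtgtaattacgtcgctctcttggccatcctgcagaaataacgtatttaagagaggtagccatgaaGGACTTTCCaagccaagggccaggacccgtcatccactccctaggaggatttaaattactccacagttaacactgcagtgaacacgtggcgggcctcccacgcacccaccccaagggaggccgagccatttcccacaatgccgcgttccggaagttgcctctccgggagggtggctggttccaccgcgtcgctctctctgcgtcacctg
Usp35 (chr7:97332060-97332359, minus strand, inside a peak): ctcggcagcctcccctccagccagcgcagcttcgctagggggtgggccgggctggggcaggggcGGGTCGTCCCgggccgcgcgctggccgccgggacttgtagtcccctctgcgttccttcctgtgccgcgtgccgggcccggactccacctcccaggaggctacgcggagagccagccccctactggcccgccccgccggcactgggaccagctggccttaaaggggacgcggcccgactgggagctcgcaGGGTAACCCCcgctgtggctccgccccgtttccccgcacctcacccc
Usp13 (chr3:32817376-32817675, plus strand, no peak): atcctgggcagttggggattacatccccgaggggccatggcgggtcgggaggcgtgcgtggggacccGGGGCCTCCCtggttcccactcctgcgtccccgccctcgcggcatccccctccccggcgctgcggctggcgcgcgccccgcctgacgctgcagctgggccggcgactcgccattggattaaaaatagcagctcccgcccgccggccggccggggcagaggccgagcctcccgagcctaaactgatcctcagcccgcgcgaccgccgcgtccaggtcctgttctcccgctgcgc
Usp45 (chr4:21776020-21776319, plus strand, no peak): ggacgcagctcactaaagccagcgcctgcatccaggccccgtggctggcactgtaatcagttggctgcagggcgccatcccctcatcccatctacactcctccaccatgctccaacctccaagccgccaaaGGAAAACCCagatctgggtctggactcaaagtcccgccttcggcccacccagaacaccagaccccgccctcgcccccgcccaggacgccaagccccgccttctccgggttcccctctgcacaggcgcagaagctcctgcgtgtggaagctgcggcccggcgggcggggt

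In the Usp16 promoter the match was GGACTTTCC, whose first base is at position -159 from the start site. It fits GGNNTTTCC, which 5.77% of other promoters hold, and 2 of the 38 USP promoters did, Usp16 and Usp45. The Usp45 match, GGAAAACCC at -119, is the same form read on the opposite strand, and the nearest peak centre to Usp45 was 149 kb away. Usp35 held no match to that form or to the consensus, and 2 to the looser form, GGGTCGTCCC at -186 and GGGTAACCCC at 4. The looser form is common: 14 of 38 USP promoters (36.8%) and 29.2% of other promoters held it. The kappaB consensus was found in 1 USP promoter, that of Usp13 (GGGGCCTCCC at -183), against 9.03% of others, and the one peak of Usp13 lay 92.6 kb downstream of this start site. The AP-1 element TGANTCA stood in 4 USP promoters (10.5%, against 7.16%) and the GC box GGGCGG in 25 (65.8%, against 47.3%). A match is a description of letters and not a binding site.

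Further from gene ends, 4 USP genes held a peak deep inside. Usp53, long annotated as an inactive USP, had a 1070 bp peak (122943374 to 122944443 of chromosome 3) 12.4 kb from its nearer end, at 23.3% of the gene's length. Usp13, the close relative of Usp5, had a 631 bp peak 27.9 kb from its nearer end. The peak in Usp31 was 558 bp wide, the narrowest at any of the 11 genes, and lay 28.0 kb inside. Usp29, an imprinted gene next to Peg3, had a 769 bp peak 61.3 kb inside. Peaks outside the gene but within 10 kb were found at 3 members. Usp44, which acts in the mitotic spindle checkpoint, had a 619 bp peak 6.61 kb from its end, with no other protein-coding gene end nearer. The peaks at Usp4 and Usp50 were closer to other genes: that at Usp4 (1153 bp, 7.17 kb away) lay inside the glutathione peroxidase gene Gpx1, 0.312 kb from its end, and that at Usp50 (589 bp, 9.29 kb away) inside the channel gene Trpm7. Over the 50 kb window, 30 distinct peaks lay near USP genes, and for 14 of them the nearest gene end was that of a USP gene. Usp50 was the last member inside 10 kb and Usp15, at 10.2 kb, the first outside. At 50 kb these were Usp37 (48.6 kb) and Usp49 (53.0 kb).

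**Figure D3:**
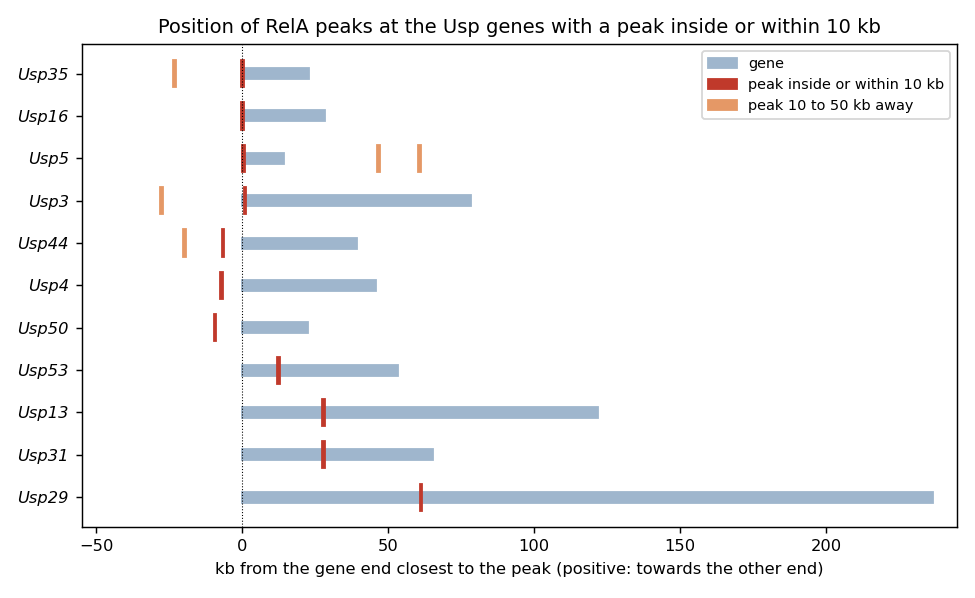
RelA peaks at the 11 USP genes with a peak inside or within 10 kb, drawn to scale along the gene (bar) in kb from the gene end closest to that peak. Peaks under 0.9 kb are drawn 0.9 kb wide, and paler ones lie 10 to 50 kb away. The peaks of Usp35, Usp16, Usp5 and Usp3 stand at that end, those of Usp44, Usp4 and Usp50 outside it, and those of Usp53, Usp13, Usp31 and Usp29 from 12.4 to 61.3 kb inside.

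In width, the 1 quantity beside position that the list gives, the 11 peaks were like the rest. They had a median of 677 bp and a range of 558 to 1153 bp, against a median of 687 bp and quartiles of 587 and 817 bp for all 9688 peaks on chromosomes 1 to 19. Those at Usp4, Usp53 and Usp16 were wider than 96.3, 94.0 and 91.8% of all peaks.

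For USPs reported to act on NF-kB, TNF or interferon signalling, no difference from other genes in the share with a peak was detectable. Of the 11 genes in this group, 2 had one inside or within 10 kb (18.2%, Wilson 95% interval 5.14 to 47.7%, against 23.8% of other genes), with 3.23 expected from genes of similar length. Within 50 kb it was 6 of 11 (54.5%, interval 28.0 to 78.7%, against 44.5%). Genes similar in length to each of the 11 had shares of 43 to 56.8% there. None of the 11 had a peak within 1 kb of an end. The 2 were Usp4, whose product acts on the kinase TAK1 and on TRAF proteins, through the Gpx1 peak, and Usp31, through its internal peak. Usp15, which can deubiquitinate I-kappa-B alpha, had a peak 10.2 kb from its end, and Usp48, which acts on RelA itself, one at 23.0 kb inside the gene Rap1gap. Usp21, which acts on RIP1, was 31.4 kb from a peak that stood 0.413 kb from an end of Adamts4. Usp25, which acts on TRAF proteins, was 34.4 kb from the nearest peak. Measured from start sites, the nearest peak centres were at 8.44 kb for Usp4, 28 kb for Usp31 and 37.4 kb for Usp21. They were at 87.4 kb for Usp48, 102 kb for Usp15 and 137 kb for Usp25. The remaining 5 had no peak within 50 kb: Usp20 was at 68.9 kb, Usp7 at 72.6 kb, Usp10 at 78.8 kb and Usp2 at 104 kb. Usp7 is best known for acting on Mdm2 and p53, and Usp2 has been linked to the circadian clock. Usp18, which strips the ubiquitin-like protein ISG15 from its targets and restrains the interferon receptor, was at 274 kb.

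Among the other roles, chromatin enzymes had a peak in 3 of 9 cases (Usp3, Usp16 and Usp44, with 2.55 expected from genes of similar length). At 50 kb it was 6 of 9 (66.7%, Wilson 95% interval 35.4 to 87.9%, against 44.5% of other genes of all lengths). Genes similar in length to each of the 9 had shares of 44.2 to 55.3% there. The others of that group within 50 kb were Usp22 of the SAGA complex (23.1 kb), Usp42 (26.4 kb) and the nucleolar Usp36 (27.1 kb), and those beyond were Usp49 (53.0 kb), Usp46 (144 kb) and Usp12 (282 kb). Every peak within 50 kb of Usp22, Usp42 or Usp36 was nearer to an end of Aldh3a1, Cyth3, Cyth1 or Cep295nl. Enzymes of free ubiquitin and the proteasome had one in 2 of 3, Usp5 and Usp13 (0.895 expected), and the same 2 of 3 within 50 kb (66.7%). Usp14, the proteasome-bound USP, was 152 kb away. Members long annotated as inactive, a label since questioned for Usp53 and Usp54, had one in 2 of 4 (Usp50 and Usp53, 1.14 expected), and all 4 within 50 kb (interval 51.0 to 100%, against 44.5%). Genes similar in length to each of the 4 had shares of 44 to 56.5% there, and this is a small group among several role lists. Usp39, a splicing factor, was 17.4 kb from a peak that lay 2.87 kb from an end of Tmem150a. Usp54 was 30.1 kb from a peak 0.317 kb from an end of Sec24c. The 5 genes listed for DNA repair and the cell cycle had none, with 1.64 expected, and 1 of 5 had one within 50 kb (20%). Usp37 was closest at 48.6 kb, then Usp1 at 117 kb, Usp45 at 149 kb, Usp47 at 217 kb and Usp28 at 385 kb. Usp44, which acts in the mitotic spindle checkpoint and had a peak, was counted with the chromatin enzymes and not here. None of the 6 genes listed for endosomes, mitochondria and other membranes had a peak inside or within 10 kb, with 1.95 expected. Within 50 kb it was 2 of 6 (33.3%), Usp6nl (28.7 kb) and the endosomal Usp8 (31.6 kb). Usp35, reported at mitochondria and with a peak, was counted among the members with no listed role. Usp19, Usp30 of mitochondria, Usp33 and Usp32 were at 65.1, 65.8, 75.8 and 113 kb. Usp8 and Usp50 lie 1.74 kb apart on chromosome 2, and the Trpm7 peak falls within 50 kb of both. The 12 members with no listed role had 2 with 3.51 expected, Usp35 and Usp29, and the same 2 of 12 within 50 kb (16.7%). Usp38, Usp40 and Usp43 were at 57.7, 73.5 and 137 kb. With 3 to 12 genes in a group, the Wilson intervals were wide, reaching 43.4% for 0 of 5 and 39.0% for 0 of 6.

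**Figure D4:**
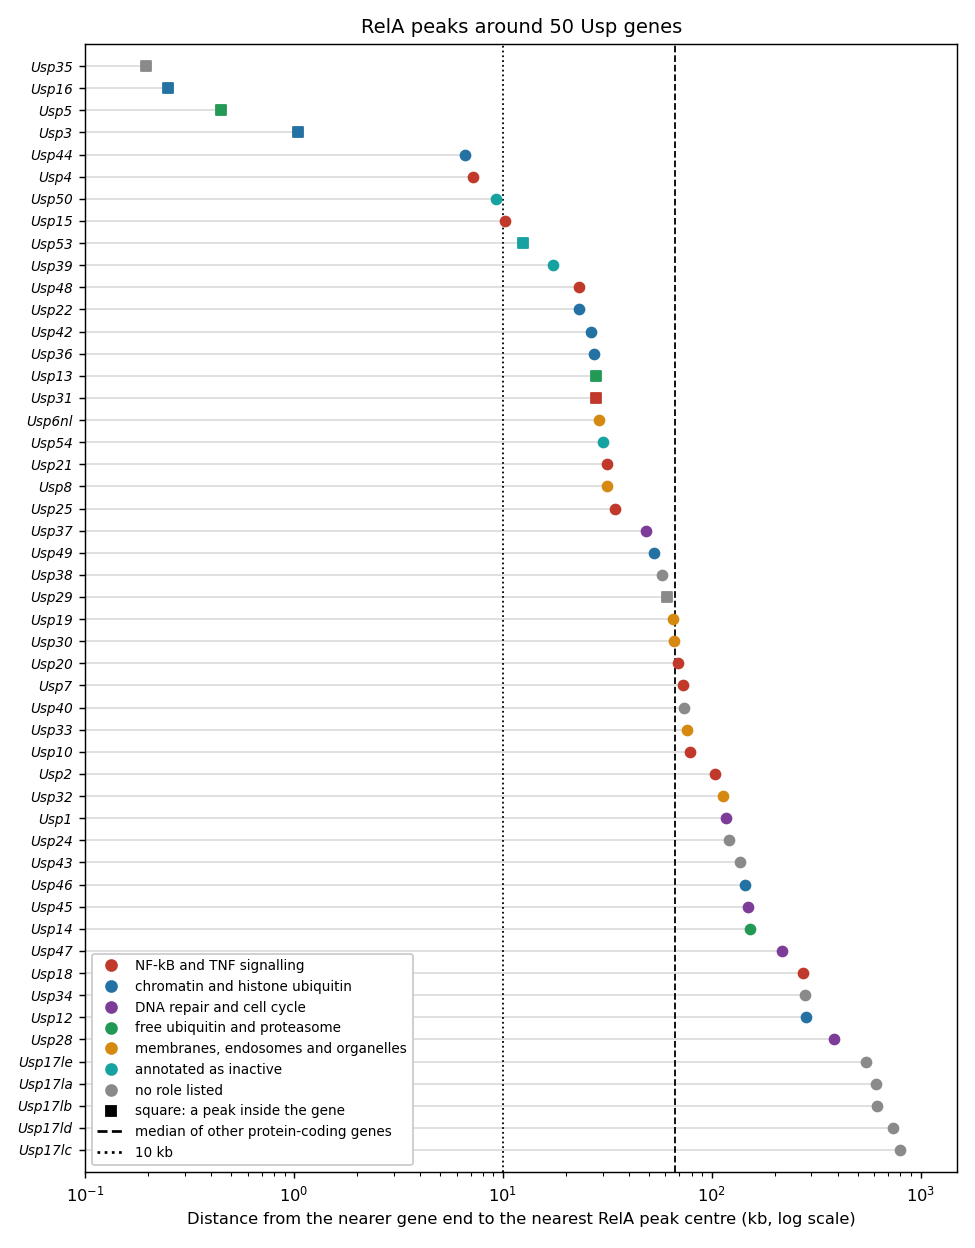
Distance from the nearer end of each of the 50 USP genes to the nearest RelA peak centre (horizontal axis, kb, log scale), coloured by role, with squares for genes that hold a peak inside them. Distances run from 0.195 kb (Usp35) to 800 kb (Usp17lc). The dashed line is the median of other protein-coding genes, 66.7 kb, and the dotted line 10 kb.

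Over all members, the median distance from a gene end to the nearest peak centre was 63.2 kb (order-statistic 95% interval 30.1 to 104 kb), close to the 66.7 kb of other genes. USP genes were closer than that value in 27 of 50 cases, and farther than the median gene of similar length also in 27 of 50. The quartiles were 26.6 and 142 kb, against 18.4 and 187 kb. By class, 3 members lay within 1 kb, 4 from 1 to 10 kb (8.00%, against 11.2% of other genes), 15 from 10 to 50 kb (30.0%, against 25.4%), 10 from 50 to 100 kb and 18 beyond 100 kb (36.0%, against 36.7%).

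The 5 Usp17l genes were the farthest of all. They belong to a group first described as cytokine-induced deubiquitinases of blood cells, are close copies of each other, and lie on chromosome 7. Reads from such copies may not be placed uniquely, but whether this bears on the distances was not tested. The genes themselves are 2.33 to 9.51 kb long. Their distances were 549 kb for Usp17le, 613 kb for Usp17la, 621 kb for Usp17lb, 733 kb for Usp17ld and 800 kb for Usp17lc. Usp17ld and Usp17lc lay in a stretch of 1702 kb between consecutive peaks (102516471 to 102517313 and 104218784 to 104219384), and the other 3 in the next stretch, of 1257 kb. The median distance between consecutive peaks on chromosomes 1 to 19 was 102 kb, and 186 of 9669 such distances were at least as long as the first stretch. Of the 101 protein-coding genes within the first stretch, 88 were olfactory receptor genes, and 35 of 52 in the second. The share of olfactory receptor genes over all protein-coding genes is not given here. Whether these genes have to do with the lack of peaks was not tested. Without the Usp17l genes and Usp6nl, 11 of 44 genes (25%, Wilson 95% interval 14.6 to 39.4%) had a peak inside or within 10 kb, with 13.7 expected from genes of similar length.

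The other deubiquitinase families give the setting. These lists were written from general knowledge, with earlier results of these data known. On chromosomes 1 to 19, 12 of 40 genes that belong to them (30.0%, Wilson 95% interval 18.1 to 45.4%) had a peak inside or within 10 kb, with 9.67 expected from genes of similar length. Of the 40, 7 had one within 1 kb of an end, against 6.58% of other protein-coding genes of all lengths. For that window no number expected from genes of similar length is given, nor whether these peaks were nearer to other genes. In the ovarian tumour (OTU) family, 1 of 14 genes (Alg13 among them lies on chromosome X) had a peak inside or within 10 kb, with 3.62 expected. It was Tnfaip3, which encodes A20 (0.033 kb). The family of MINDY enzymes and Zup1 had 4 of 5, with 1.54 expected, led by Zup1 (0.057 kb), Mindy3 (0.167 kb) and Mindy2 (0.3 kb). The zinc metalloprotease (JAMM) family had 4 of 11 with 2.60 expected, among them the histone H2A deubiquitinase gene Mysm1 (0.124 kb) and Mpnd (3.60 kb). The UCH family had 1 of 5, Uchl1 (1.20 kb, 0.887 expected), and the Josephin family 0 of 3 (0.597 expected). Of the genes that carry a USP fold without a Usp number, Cyld (0.084 kb) and Pan2 (0.113 kb), which encodes a subunit of a poly(A)-shortening enzyme, were near a peak, and Uspl1 (23.9 kb) was not (0.740 expected). Of the 5 USP genes on chromosome X, Usp27x alone had a peak within 10 kb (0.153 kb, 1.19 expected). Among 9 genes for USP partners and substrates, 4 had one (2.18 expected), the closest being Eny2 (0.312 kb), a subunit of the module in which Usp22 works, G3bp1 (0.910 kb), whose product binds Usp10, and Isg15 (1.46 kb), whose product Usp18 removes. Usp22 and Usp10 themselves were 23.1 and 78.8 kb from a peak.

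**Figure D5:**
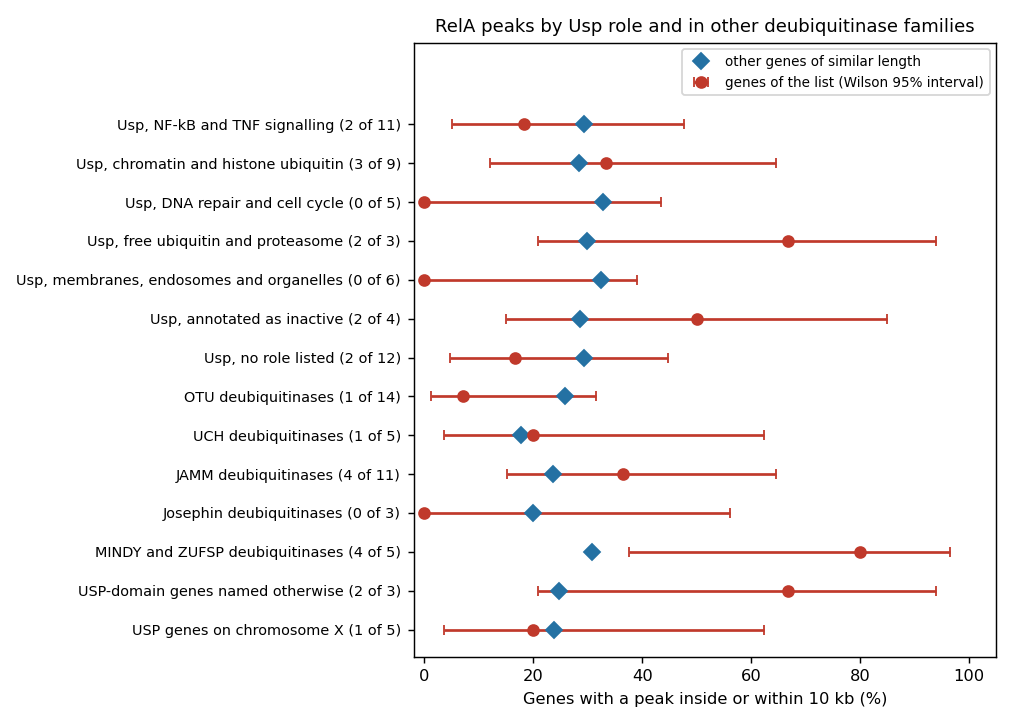
Share of genes with a RelA peak centre inside or within 10 kb (horizontal axis, percent) in USP genes by role and in other deubiquitinase families, with Wilson 95% intervals (circles and bars) and the share of other genes of similar length (diamonds). The interval of the MINDY and Zup1 family, 37.6 to 96.4%, is the one that lies clear of its diamond. That family has 5 genes and is 1 of many lists shown, all chosen with earlier results of these data known.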

How the data were processed

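RelA ChIP-seq was measured in 8 libraries, 2 per group. The deposited values are peak coordinates, in bases on mm10. Tools named, per the submitters' processing notes, were MACS2, deepTools, Picard 1.13, SAMtools, Bowtie2 2.3 and cutadapt 1.9.1. How input was used, whether libraries were pooled and at what threshold peaks were called is not given in the sources used here. A threshold decides how many weak sites appear. Per the labels' protocols, cells were fixed with a protein-protein cross-linker before formaldehyde, so a listed region may not touch RelA directly.

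Starts were converted to positions counted from 1, and a peak was placed by its centre. Genes came from the RefSeq table of GRCm38.p6, leaving out 345 genes positioned on patches or unplaced scaffolds. The table has no exons, so introns and untranslated regions were not assigned. Distances to start sites used the RefSeq promoter table. Wilson intervals used SciPy 1.17.1, and counting was tested on simulated data. Roles and families were written from general knowledge. The members and lists were chosen with earlier results of these data known.

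Named in full were members with a peak within 1 kb of an end, the signalling group, the 5 with the most peaks (ties by width) and the 3 farthest. In other families these were the 3 closest genes within 10 kb. Other names were added after their values were seen.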

Additional observations from a re-analysis of the deposited data

How the results depend on the processing

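With wider peaks alone (at least the median width), 5 USP genes had a peak inside or within 10 kb in place of 11. Fewer peaks were counted for all genes at this setting. The ratio to the number expected from genes of similar length was also lower, 0.559 in place of 0.738, but within the interval of the latter. The median distance to a peak was 109 kb in place of 63.2 kb, with no median of other genes at this setting to set beside it. Counting peaks within 10 kb of gene ends alone gave 7 genes, a ratio to the expected number of 0.677. Leaving out members whose peaks were all nearer to another gene end gave 12 of 39 genes at 50 kb and a ratio to the expected number of 0.608, but other genes were not trimmed alike. The ratio was below 1 in the 8 alternatives that kept the 10 kb window (0.559 to 0.803). It was also below 1 in 4 other windows up to 10 kb (0.6 to 0.747) and in the 8 alternatives at 50 kb (0.608 to 0.980). These settings reuse 1 peak list and nearly the same genes, so their agreement is not independent support. The trimming removed only members with a peak, so its ratios (0.624 at 10 kb and 0.608 at 50 kb) had to fall. Merging peaks within 1 kb left the ratios at 0.738 and 0.916. Within 50 kb, 6 of the 11 signalling USP genes (54.5%) and 19 of the 40 genes of other families (47.5%) had a peak. The share of other protein-coding genes of all lengths was 44.5%. Of the 2 USP promoters inside a peak, 0 held the kappaB consensus, 1 held GGNNTTTCC and 1 held the looser form. In all, 39 of 52 alternatives stayed within 1.5 times the reported count or within the interval of the reported ratio or median. The latter intervals are wide: the median distance was 92.9 kb when measured from start sites of 38 genes. Depth was unknown, so whether a gene without a peak was unbound or under the caller's threshold cannot be told apart. No paired analysis was possible because the peak list has no column per library, and for the same reason no replicate could be left out.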
